A study of Mus musculus with 18 samples.

Results

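The genes described here make cholesterol and fatty acids. They are 30 of the 20683 genes in the deposited count table, taken by name from a list of synthesis enzymes, their regulators and sterol carriers, and all 30 were found. The list holds 7 genes of the mevalonate pathway, 11 of the sterol steps from squalene to cholesterol, 5 regulators of the pathway, 5 genes of fatty acid synthesis and 2 of sterol transport. No measured value entered the choice of the rule, but the list was proposed with earlier results of these data known. The cells were mouse erythroblasts, the dividing precursors of red blood cells, taken from the fetal liver of Trp53 -/- mice (strain FVB/n x C57BL/6). They were grown in Stempro with 0.5 U/ml erythropoietin, 1 nM dexamethasone and a 1% supernatant holding stem cell factor. All 6 groups carry the same Trp53 -/- genotype, and no wild-type cells were compared. Cells received tunicamycin at 2.5 ug/ml for 1.5 h or were left untreated. Each treatment has 3 libraries of total RNA, 3 of ribosome footprints after cycloheximide (100 ug/ml for 5 min, which freezes ribosomes where they are), and 3 of footprints after harringtonine (2 ug/ml, which holds ribosomes at start sites), 18 samples in all.

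Tunicamycin blocks the first step of N-glycosylation and so loads the endoplasmic reticulum with unfolded protein, and the series used it to bring about eIF2 phosphorylation, which slows the start of translation. Cholesterol is built in that same membrane: acetyl-CoA becomes mevalonate, then isoprenoid units, then squalene, which is closed into lanosterol and trimmed to cholesterol. The transcription factors SREBP-1 and SREBP-2 (genes Srebf1 and Srebf2) switch on nearly all of these enzymes. They are made as membrane proteins of the endoplasmic reticulum, escorted to the Golgi for cleavage by SCAP when sterols are low, and kept back by INSIG proteins when sterols are plentiful. Erythroblasts divide quickly, and dividing cells need new membrane lipid.

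RNA libraries held 14.456 to 43.534 M (mega) reads under tunicamycin and 12.883 to 48.993 M without it. Cycloheximide libraries held 5.028 to 5.795 M footprints under tunicamycin and 6.904 to 7.156 M without it. Kept harringtonine positions held 0.559 to 0.648 M reads under tunicamycin and 0.447 to 0.524 M without it. The response to tunicamycin was present: coding-sequence (CDS) footprints of Atf4, the transcription factor made when eIF2 is phosphorylated, had 4.53 times the untreated level (edgeR adjusted p = 2.33e-08). All 12 erythroid marker genes averaged at least 5 CPM in RNA, whereas no gene of the hepatocyte, macrophage, neutrophil and monocyte, or endothelial and stromal lists did, and the hepatocyte genes Ttr, Apob, Fgb and Serpina1a were at 0. Of the 5 mast cell genes only 1 averaged at least 5 CPM, Ms4a2 at 139 CPM. Of the 7 megakaryocyte genes only 1 did, Gp5 at 100.0 CPM, and Ppbp was at 0. The summed megakaryocyte list ranged from 95.4 to 105 CPM under tunicamycin and from 112 to 119 CPM without it, and its part in any result was not tested. The summed mast cell list ranged from 109 to 169 CPM under tunicamycin and from 104 to 169 CPM without it. CPM here is a count scaled to a common library total, with TMM, a correction that centres the typical gene. Changes are therefore relative to that gene, and in bulk samples fewer cells of a type and less RNA per cell cannot be told apart.

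Promoter sequences of these genes were searched for 3 short motifs, with no test of enrichment. Promoter windows (GRCm38.p6, 250 bases before to 50 after a listed start) were held for 24 of the 30. The listed start can differ from the RefSeq gene start that is used below for harringtonine distances. The letters CCAAT, the NF-Y box, on either strand, occurred in 20 of the 24 (83.3%), against 41.1% of the 27025 genes with a window. CACGTG, an E-box, occurred in 5 of the 24 (20.8%), against 8.09% of all genes. TCACNCCAC, the classic sterol regulatory element bound by SREBP, occurred on either strand in 1 of the 24, Hmgcs1 (4.17%), against 1.44% of all genes. The windows below, read 5′ to 3′ on the gene's strand, show that element in Hmgcs1 (chr13:119690204-119690233, plus strand) and the CCAAT box of Cyp51 (chr5:4104709-4104738, minus strand) and of Fasn (chr11:120824592-120824621, minus strand), which are shown because the RNA of Cyp51 and Fasn is among the results. Capitals mark the motif. In Fasn the CCAAT shown overlaps a match on the other strand, and another match lies further upstream. The Fasn bases shown begin at -62 from the listed start. They lie inside the RefSeq span of the gene, which reaches 120825166.
Hmgcs1: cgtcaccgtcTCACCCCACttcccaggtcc
Cyp51: cgctgtccgccaCCAATctggtcctgagat
Fasn: cggcctcggtgtCCAATtggtttcgatgtg
A match is a description of letters, not a site of binding.

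In total RNA, 0 of the 30 genes passed an adjusted p of 0.05, where 0.150% of the 10643 genes tested passed. At an unadjusted p under 0.05, 5 of the 30 were higher and 0 lower (edgeR), where 7.06% of all genes were higher and 5.38% lower at that threshold, and DESeq2 passed 1, Cyp51, beside 0.874% of all genes called higher by it. With the replicate number as a block, 3 rose, Cyp51, Acaca and Fasn, beside 2.66% of all genes called higher in that fit. The fitted log2 change was positive for 22 of the 30, where 48.5% of all genes tested were positive. The median change was 0.07, against -0.005 for all genes tested. In same-numbered pairs of libraries, 14 of the 30 (46.7%) were higher under tunicamycin in each of 3 pairs, against 23.0% of all genes, and 2 (6.67%) were lower in each, against 22.6%. All tunicamycin values lay above all untreated ones in 4 of the 30 (13.3%) and below them in 1 (3.33%), against 9.95% and 8.29% of all genes. Summed over the 30 genes, RNA came to 10830, 10300 and 10360 CPM under tunicamycin and 10250, 9720 and 9709 CPM without it, so the groups did not overlap, by a narrow margin.

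The RNA of the 7 mevalonate genes summed to 1992, 2071 and 2038 CPM under tunicamycin and 1872, 1906 and 1947 CPM without it, and these sums did not overlap, though none of the 7 genes passed. Hmgcs1, which condenses acetyl groups to HMG-CoA, had 801, 731 and 672 CPM under tunicamycin and 721, 613 and 596 CPM without it. It was higher in every pair, though the groups overlap, and its log2 change was 0.19 ± 0.09 SE (adjusted p = 0.404; with the block 0.0509). Idi1, which turns isopentenyl into dimethylallyl diphosphate, had 167, 160 and 150 CPM under tunicamycin and 136, 137 and 154 CPM without it. Untreated library 3 lay above tunicamycin library 3, and the change was 0.16 ± 0.07 SE (adjusted p = 0.377). The log2 changes of the 7 mevalonate genes ran between -0.13 and 0.19, with 4 positive and 3 negative.

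Among the sterol genes, 9 of 11 had a positive change, with a median of 0.08. The RNA of the 11 summed to 3539, 3633 and 3574 CPM under tunicamycin and 3289, 3373 and 3277 CPM without it, with no overlap. The summed RNA of the fatty acid genes, of the regulators and of the transport genes overlapped. Cyp51, the lanosterol demethylase, had 555, 593 and 586 CPM under tunicamycin and 478, 505 and 493 CPM without it, and the groups did not overlap. Its change was 0.23 ± 0.06 SE, a 1.18-fold level (adjusted p = 0.224 in edgeR without the block, 0.0292 with it, and 0.0274 in DESeq2). Sqle, squalene epoxidase, had 712, 715 and 669 CPM under tunicamycin and 683, 693 and 617 CPM without it, and did not pass (0.07 ± 0.07 SE, adjusted p = 0.698). Msmo1, the methylsterol oxidase, had 835, 824 and 759 CPM under tunicamycin and 740, 723 and 745 CPM without it, apart but not passing at 0.13 ± 0.06 SE (adjusted p = 0.427). Tm7sf2, a sterol reductase, ran the other way, with 20.5, 23.5 and 25.4 CPM under tunicamycin and 24.2, 27.9 and 29.3 CPM without it. It was lower in every pair (-0.21 ± 0.10 SE, adjusted p = 0.418; with the block 0.0530). Sc5d, the lathosterol desaturase, had 208, 194 and 177 CPM under tunicamycin and 189, 175 and 155 CPM without it, higher in every pair with overlapping groups (0.15 ± 0.08 SE, adjusted p = 0.481; with the block 0.0646).

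No regulator passed in RNA, with or without the block. Srebf2 had 626, 574 and 579 CPM under tunicamycin and 612, 578 and 559 CPM without it. Srebf1 had 136, 138 and 151 CPM under tunicamycin and 148, 142.5 and 146.5 CPM without it. Both groups overlap in both genes. Scap had 95.7, 90 and 90.04 CPM under tunicamycin and 97.1, 96.4 and 95.8 CPM without it. Scap was the only one of the 30 genes whose RNA values all lay below the untreated ones, at a log2 change of -0.07 that did not pass. Insig1 had 459, 353 and 311 CPM under tunicamycin and 427, 342 and 331 CPM without it. Insig2, its paralogue, had 19.9, 17.4 and 19.0 CPM under tunicamycin and 19.1, 20.2 and 20.2 CPM without it. The groups overlap in both Insig genes.

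All 5 fatty acid genes had a positive RNA change, between 0.03 and 0.23. Fasn, the fatty acid synthase itself, had 704, 601 and 623 CPM under tunicamycin and 642, 518 and 524 CPM without it, higher in every pair. Its change was 0.19 ± 0.09 SE (adjusted p = 0.414) and 0.20 ± 0.05 SE with the block (0.0492). Acaca, the acetyl-CoA carboxylase that supplies it, had 96.0, 76.0 and 85.7 CPM under tunicamycin and 76.3, 67.8 and 75.4 CPM without it. Its log2 change was 0.23 ± 0.09 SE (adjusted p = 0.341) and with the block 0.23 ± 0.05 SE (0.0411). Acly, which makes cytosolic acetyl-CoA from citrate, had 444, 426.5 and 461 CPM under tunicamycin and 407, 393 and 413 CPM without it, apart at 0.14 ± 0.06 SE but not passing (0.389). Scd2, the most highly counted of the 30 and a desaturase, had 2181, 1869 and 1978 CPM under tunicamycin and 2156, 1851 and 1888 CPM without it, a difference of 0.03 that did not pass. Of the transport genes, Npc1, which lets cholesterol leave the lysosome, had 18.1, 19.6 and 22.3 CPM under tunicamycin and 15.7, 17.4 and 17.8 CPM without it. Its change of 0.26 ± 0.10 SE was the highest of the 30 (adjusted p = 0.351; with the block 0.0736).

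**Figure D1:**
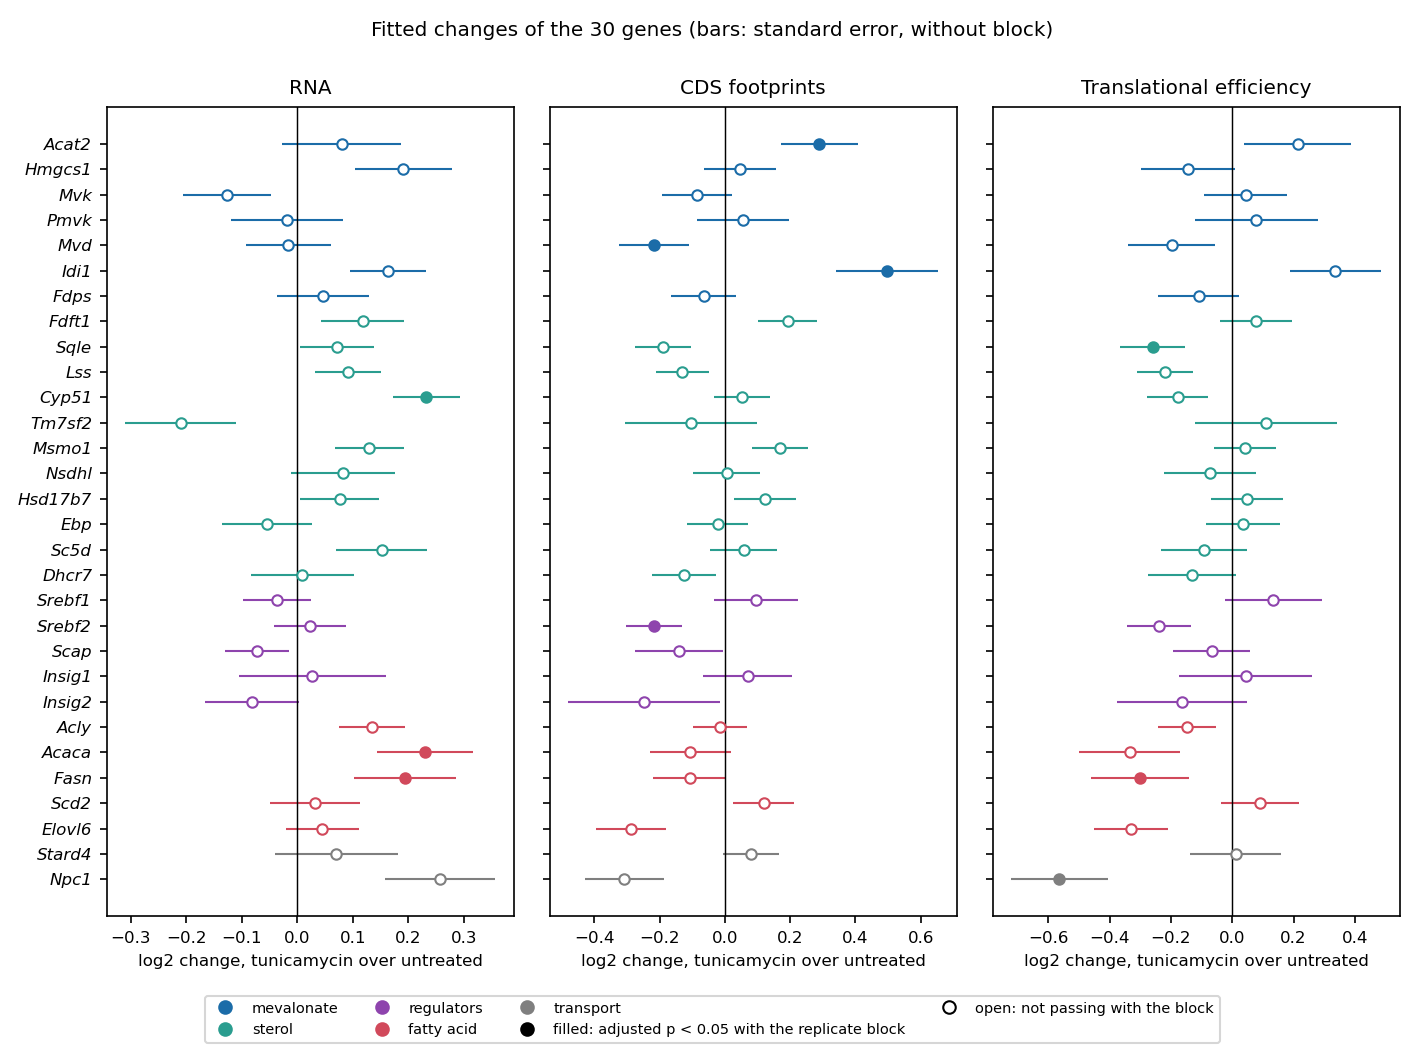
Fitted log2 changes (tunicamycin over untreated, horizontal axes) of the 30 genes in RNA, CDS footprints and translational efficiency, with standard errors of the fit without the block; colour gives the role and a filled point an adjusted p under 0.05 with the replicate block. RNA points lie mostly right of 0 (22 of 30, where 48.5% of all genes tested were positive). Efficiency points lie left of it in 17 of 30, where 4753 of all 9218 genes were negative.

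Footprints on the coding sequences of these genes showed no common direction. Of the 30 genes, 0 passed in CDS footprints, where 2.58% of 9265 genes passed. At an unadjusted p under 0.05, 2 were higher and 4 lower (edgeR), where 8.99% of all genes were higher and 7.65% lower. DESeq2 passed 0 at its adjusted p, beside 2.61% of all genes. The median log2 change was -0.02, against 0.002 for all genes. Of the 30, 14 were positive and 16 negative, where 50.5% of all genes were positive. With the block, 2 rose (Acat2 and Idi1) and 2 fell (Mvd and Srebf2), beside 5.63% of all genes called higher and 3.92% called lower in that fit. Summed CDS footprints of the 30 genes were 11910, 11220 and 11210 CPM under tunicamycin and 11900, 11280 and 10860 CPM without it, which overlap.

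Idi1 had the highest fitted change in CDS footprints. It had 16.2, 17.7 and 19.0 CPM under tunicamycin and 11.4, 12.1 and 13.99 CPM without it, from 75 to 97 footprints a library, and the groups did not overlap. The change was 0.50 ± 0.16 SE, a 1.41-fold level (adjusted p = 0.113; with the block 0.0309). Acat2, the cytosolic thiolase of the first step, had 68.0, 81.1 and 87.4 CPM under tunicamycin and 55.4, 67.7 and 70.4 CPM without it, higher in each pair though the groups overlap. Its change was 0.29 ± 0.12 SE (adjusted p = 0.228; with the block 0.0328). Mvd, which decarboxylates mevalonate diphosphate, had 175, 174 and 211 CPM under tunicamycin and 206, 196 and 248 CPM without it. Mvd was lower in each pair (-0.22 ± 0.11 SE, adjusted p = 0.327; with the block 0.0490). Hmgcs1 had 1962, 1792 and 1655 CPM under tunicamycin and 2040, 1718 and 1481 CPM without it, a difference of 0.05 that did not pass.

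Srebf2 was the regulator with the clearest difference in CDS footprints. It had 304.5, 301 and 263 CPM under tunicamycin and 339, 333 and 337 CPM without it, and the groups did not overlap. The change was -0.22 ± 0.09 SE (adjusted p = 0.213), and with the block -0.22 ± 0.07 SE (0.0456). Srebf1 had 170, 125 and 155.5 CPM under tunicamycin and 146, 114.5 and 161.5 CPM without it, a wide overlap. Scap had 27.6, 23.4 and 21.8 CPM under tunicamycin and 26.2, 25.9 and 28.1 CPM without it. Insig1 had 73.7, 85.8 and 61.8 CPM under tunicamycin and 82.2, 70.5 and 57.8 CPM without it. Both overlap. Insig2 had few footprints, 4.71, 3.98 and 4.91 CPM under tunicamycin and 5.16, 4.97 and 6.08 CPM without it, from 18 to 40 a library. None of these last 4 regulators passed with or without the block.

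Of the sterol and fatty acid genes, Sqle had 528, 540 and 468 CDS CPM under tunicamycin and 605, 591.5 and 555 CPM without it, apart but not passing (-0.19 ± 0.09 SE, adjusted p = 0.288; with the block 0.0593). Fdft1, squalene synthase, differed the other way, with 353, 415.5 and 392 CPM under tunicamycin and 319, 363 and 335 CPM without it, higher in each pair with overlapping groups (0.19 ± 0.09 SE, 0.301; with the block 0.0624). Elovl6, which elongates palmitate, had 52.6, 44.4 and 48.9 CPM under tunicamycin and 62.3, 62.0 and 54.0 CPM without it, with its groups apart (-0.29 ± 0.11 SE, 0.183; with the block 0.0639). Fasn had 1479, 1150 and 1099 CPM under tunicamycin and 1473, 1332 and 1213 CPM without it, and Scd2 1671, 1373 and 1472 CPM under tunicamycin and 1500, 1337 and 1324 CPM without it. Neither passed. Npc1 had 34.4, 34.3 and 41.8 CPM under tunicamycin and 41.0, 46.5 and 49.7 CPM without it, lower in each pair (-0.31 ± 0.12 SE, adjusted p = 0.205; with the block 0.0509). In all, 7 of the 30 (23.3%) were higher in each pair and 8 (26.7%) lower, against 23.0% and 22.2% of all genes. The groups lay apart upward in 1 (3.33%) and downward in 5 (16.7%), against 11.3% and 10.3% of all genes.

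Translational efficiency, the CDS footprints per RNA tested as 1 model over the 12 RNA and cycloheximide libraries, leaned down. Of the 30 genes, 0 passed, where 1.40% of 9218 genes passed. At an unadjusted p under 0.05, 1 was higher and 5 lower (edgeR), where 8.17% of all genes were higher and 7.34% lower. DESeq2 passed 1 at its adjusted p, Npc1, as lower, beside 1.80% of all genes. With the block, 3 fell, Npc1, Fasn and Sqle, beside 4.23% of all genes called lower in that fit. The median log2 change was -0.08, against -0.008 for all genes. The change was negative in 17 of the 30, a share near that of all genes (4753 of 9218). In 12 of the 30 (40.0%) the CPM ratio was lower in each pair, against 23.4% of all genes, and in 9 (30%) all tunicamycin values lay below all untreated ones, against 12.6%. It was higher in each pair in 5 (16.7%), against 21.3%, and apart upward in 4 (13.3%), against 11.2%. Each CPM ratio divides a cycloheximide library by the RNA library of the same number, and whether such libraries match was not checked. Since RNA is the denominator, genes higher in RNA tend to score lower here, and the RNA and efficiency values of a gene are not separate evidence.

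Npc1 had the lowest fitted change. Its ratio of CDS footprint CPM to RNA CPM was 1.90, 1.74 and 1.87 under tunicamycin and 2.62, 2.67 and 2.79 without it, so the groups did not overlap. The log2 change in efficiency was -0.56 ± 0.16 SE, 0.677 of the untreated level (adjusted p = 0.0791; with the block 0.00794; DESeq2 0.0273). Npc1 shares 8982 bases of its RefSeq span with Rmc1, and the labels state no strand or overlap option for the authors' counting, so its counts are uncertain. The same holds for Fdft1, Lss, Insig1, Acaca, Mvd, Acat2, Srebf1 and Fdps, whose RefSeq spans also overlap another gene or pseudogene, while Tm7sf2 and Elovl6 share 9 and 3 bases with one and Acly, Scd2 and Srebf2 hold a miRNA gene. Fasn had ratios of 2.10, 1.91 and 1.76 under tunicamycin and 2.30, 2.57 and 2.32 without it. The groups lay apart, and the log2 change in efficiency was -0.30 ± 0.16 SE (adjusted p = 0.383; with the block -0.31 ± 0.08 SE, 0.0208). Sqle had ratios of 0.741, 0.755 and 0.699 under tunicamycin and 0.886, 0.854 and 0.899 without it. The groups again lay apart, with a log2 change of -0.26 ± 0.11 SE (adjusted p = 0.246; with the block 0.0359).

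Elovl6 had ratios of 0.312, 0.296 and 0.299 under tunicamycin and 0.382, 0.4002 and 0.363 without it. The groups were apart at -0.33 ± 0.12 SE, and the gene missed the threshold (adjusted p = 0.182; with the block 0.0572). Srebf2 had ratios of 0.486, 0.524 and 0.454 under tunicamycin and 0.554, 0.576 and 0.603 without it, apart at -0.24 ± 0.10 SE (adjusted p = 0.272; with the block 0.0756). Hmgcs1 had ratios of 2.45, 2.45 and 2.46 under tunicamycin and 2.83, 2.81 and 2.49 without it, apart but not passing. Idi1 differed the other way, with ratios of 0.0969, 0.110 and 0.127 under tunicamycin, against 0.0836, 0.0884 and 0.0909 without it, and did not pass (0.34 ± 0.15 SE, adjusted p = 0.281; with the block 0.183). By role, the median efficiency change was -0.30 for the 5 fatty acid genes, -0.07 for the 11 sterol genes, -0.07 for the 5 regulators and 0.04 for the 7 mevalonate genes. These medians were not compared by a test.

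**Figure D2:**
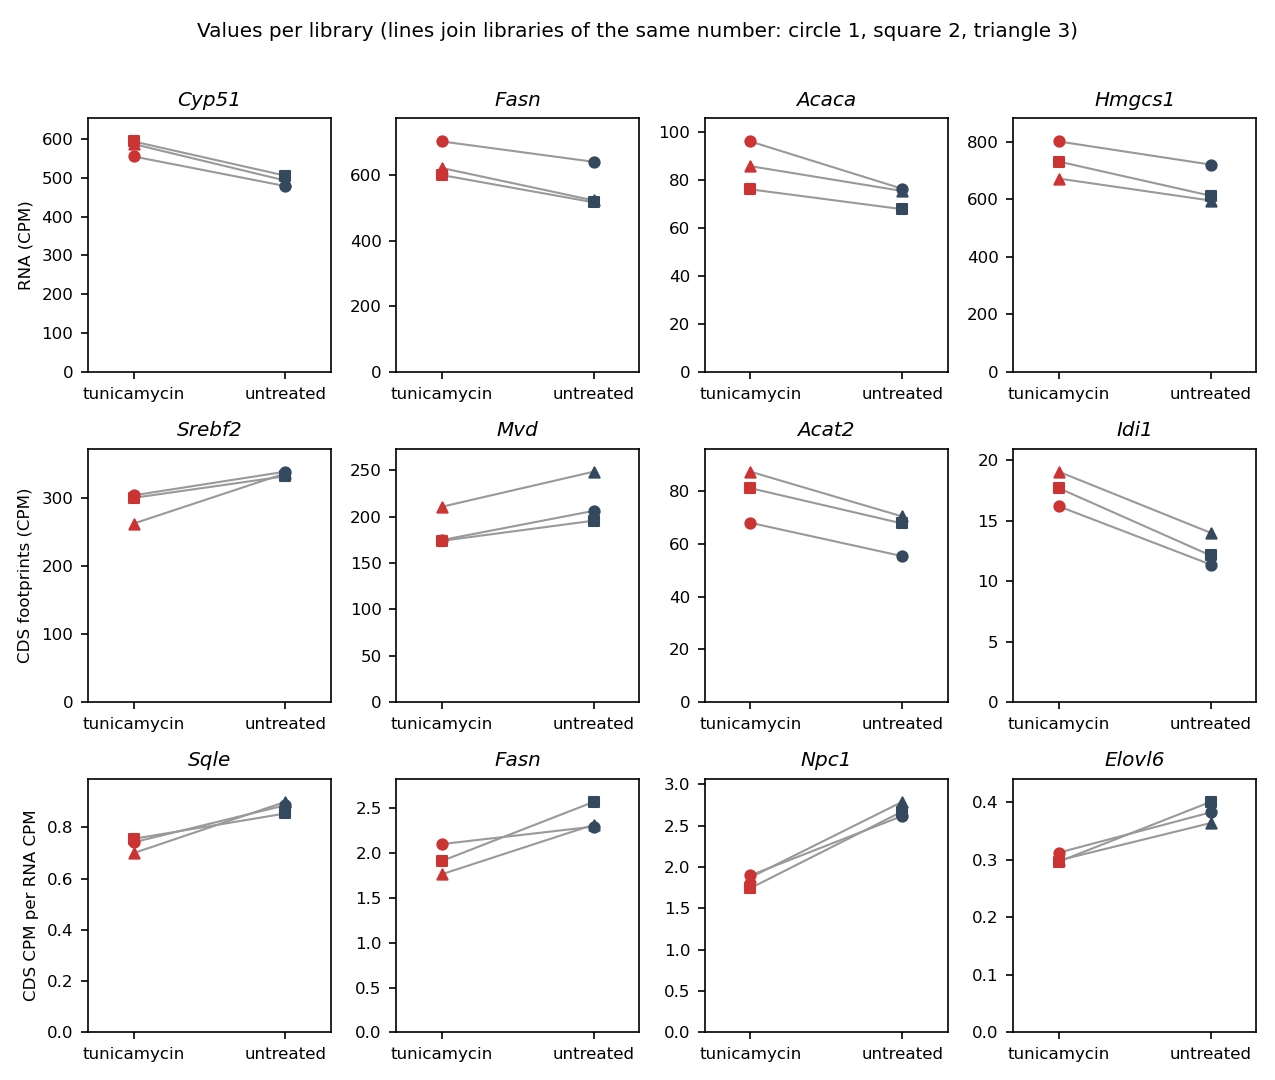
Values in each library of genes that pass with the replicate block and of Hmgcs1 (RNA) and Elovl6 (ratio), which do not: RNA CPM in the top row, CDS footprint CPM in the middle row, and their ratio in the bottom row, all from 0, with tunicamycin left of untreated. Lines join libraries of the same number; in every panel the 3 lines run the same way.

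Footprints in the 5′ leader, the part of an mRNA before its coding sequence, gave the clearest difference in these genes, and a shift of like size ran through the whole table. The ratio of leader to CDS footprints rose in 20 of the 26 genes with enough leader footprints to test and fell in 0. Of all 4417 genes tested, 64.3% were called higher and 0.0679% lower, so the count of 20 is near that background. With the block 22 of the 26 rose, adding Srebf2 and Scap, beside 70.7% of all genes, and with DESeq2 19, beside 51.9%. The median log2 change was 1.03 over the 26 genes, against 0.886 over all. Summed over the 30 genes, leader footprints were 8.44%, 9.15% and 11.96% of leader and CDS footprints under tunicamycin, and 6.08%, 4.81% and 5.53% without it. Over all genes of the table they were 7.86%, 7.94% and 10.4% under tunicamycin, and 5.16%, 4.07% and 5.47% without it. Tunicamycin library 3 was highest in both. Scd2 alone gave 2106, 2120 and 3257 of the 5365, 5114 and 7760 leader footprints of the 30 genes under tunicamycin, and 2082, 1401 and 1396 of 5081, 3669 and 4179 without it. Which feature took the reads of bases shared between transcripts is not stated in the labels.

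In the mevalonate pathway 4 of 6 tested genes rose. Mvd had a leader share of 1.50%, 2.24% and 2.46% of its leader and CDS footprints under tunicamycin and 0.512%, 0.317% and 0.548% without it. Its leader to CDS ratio rose by 2.15 ± 0.39 SE on the log2 scale (adjusted p = 0.00116), on only 4 to 27 leader footprints a library. Acat2 had 30.8%, 25.2% and 37.4% under tunicamycin and 19.1%, 15.7% and 15.7% without it (log2 ratio 1.17 ± 0.26 SE, 0.00255). In both genes every tunicamycin value exceeded every untreated one. Fdps, farnesyl diphosphate synthase, had 17.6%, 19.5% and 20.1% under tunicamycin and 9.87%, 8.16% and 10.7% without it (adjusted p = 0.00184). Hmgcs1 had 1.35%, 1.66% and 2.07% under tunicamycin and 1.01%, 0.602% and 0.915% without it (0.00760).

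Pmvk and Idi1 had the lowest fitted changes in this ratio among the tested synthesis genes. Pmvk, phosphomevalonate kinase, had 20.9%, 17.1% and 19.2% of its footprints in the leader under tunicamycin and 19.6%, 17.0% and 17.5% without it, a log2 ratio of 0.10 ± 0.22 SE (adjusted p = 0.686). Idi1 had 36.3%, 29.8% and 31.7% under tunicamycin and 39.5%, 33.3% and 31.8% without it, lower in each pair at -0.14 ± 0.26 SE (0.611). For both the groups overlap, though Pmvk was higher in each pair. Of all genes tested, 0.521% had a leader share lower in each of 3 pairs. Mvk had 2 to 15 leader footprints a library and was too low to test.

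In the sterol steps 9 of 10 tested genes rose. Nsdhl, a sterol dehydrogenase of the C4 demethylation steps, had a leader share of 8.11%, 10.5% and 13.5% under tunicamycin and 3.45%, 1.76% and 2.80% without it. Its log2 ratio rose by 2.13 ± 0.30 SE, a 4.37-fold level (adjusted p = 0.000603). Ebp, the sterol isomerase, had 12.2%, 13.1% and 16.2% under tunicamycin and 7.42%, 4.58% and 3.80% without it (1.55 ± 0.29 SE, 0.00128). Msmo1 had 0.751%, 0.977% and 1.11% under tunicamycin and 0.402%, 0.146% and 0.451% without it (1.54 ± 0.37 SE, 0.00370). In Nsdhl, Ebp and Msmo1 the groups lay apart. Sc5d had 19.2%, 16.1% and 21.1% under tunicamycin and 12.3%, 7.02% and 11.5% without it (adjusted p = 0.00587). Cyp51 had 4.62%, 5.77% and 6.52% under tunicamycin and 3.04%, 2.08% and 3.64% without it (0.00683). Sqle, whose leader holds many footprints, had 29.8%, 29.6% and 39.1% under tunicamycin and 22.04%, 20.7% and 20.6% without it (0.86 ± 0.24 SE, 0.00822).

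The other sterol calls rested on 3 to 34 leader footprints a library. Dhcr7, the last reductase of the pathway, had 3.03%, 1.75% and 2.40% under tunicamycin and 1.52%, 0.961% and 1.28% without it (adjusted p = 0.0221). Lss, lanosterol synthase, had 1.44%, 0.905% and 1.47% under tunicamycin and 0.733%, 0.461% and 0.823% without it (0.0262). Fdft1 had 0.920%, 0.739% and 1.38% under tunicamycin and 0.521%, 0.128% and 0.765% without it (0.0463). Each of Dhcr7, Lss and Fdft1 lost its call when tunicamycin library 1, tunicamycin library 3 or untreated library 2 was left out, and Fdft1 also without untreated library 1. The highest adjusted p was 0.108 for Dhcr7, 0.0919 for Lss and 0.195 for Fdft1. Tm7sf2 had 25.3%, 26.6% and 32.8% under tunicamycin and 23.0%, 18.8% and 19.5% without it, apart but not passing (0.65 ± 0.28 SE, 0.0541). Hsd17b7, with 3 to 19 leader footprints a library, was not tested.

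Among the regulators 1 of 3 tested genes rose, Insig1. It had 26.4%, 20.2% and 30% of its footprints in the leader under tunicamycin and 15.05%, 6.39% and 20% without it. Its log2 ratio was 1.13 ± 0.36 SE (adjusted p = 0.0152; 0.0628 without tunicamycin library 3). Srebf2 had 2.43%, 1.59% and 3.74% under tunicamycin and 1.32%, 0.879% and 2.08% without it, higher in each pair though the groups overlap (0.87 ± 0.37 SE, 0.0521; with the block 0.00869). Scap had the highest mean leader share of the 30 under tunicamycin, with 38.1%, 40.5% and 53.4% under tunicamycin and 39.5%, 32.9% and 28.3% without it (0.64 ± 0.28 SE, 0.0519; with the block 0.0478). Srebf1 had 1, 1 and 4 leader footprints under tunicamycin and 0, 0 and 1 without it, and Insig2 6, 9 and 10 under tunicamycin and 9, 10 and 9 without it. Both were too low to test.

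In fatty acid synthesis 4 of 5 genes rose. Fasn had the highest change of the 26. Its leader held 33, 24 and 35 footprints under tunicamycin and 11, 8 and 10 without it, which is 0.455%, 0.459% and 0.621% of its footprints under tunicamycin and 0.113%, 0.0932% and 0.125% without it. The log2 ratio rose by 2.20 ± 0.34 SE, a 4.58-fold level (adjusted p = 0.000671). Acly had 1.95%, 1.88% and 2.14% under tunicamycin and 0.598%, 0.616% and 0.631% without it (1.71 ± 0.26 SE, 0.000671). Scd2 had 20.5%, 25.4% and 30.3% under tunicamycin and 17.4%, 14% and 13.8% without it (0.93 ± 0.26 SE, 0.00752). Elovl6 had 33.2%, 38.5% and 39.7% under tunicamycin and 27.8%, 19.7% and 24.8% without it (0.90 ± 0.24 SE, 0.00655). In Fasn, Acly, Scd2 and Elovl6 the groups lay apart. Acaca had 2.91%, 1.25% and 5.66% under tunicamycin and 1.60%, 2.06% and 1.91% without it, an overlap that did not pass (0.0982).

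Both transport genes rose. Stard4, a soluble sterol carrier, had 4.18%, 3.69% and 5.58% under tunicamycin and 2.28%, 1.50% and 2.16% without it (log2 ratio 1.21 ± 0.28 SE, adjusted p = 0.00321). Npc1 had 6.14%, 3.73% and 9.75% under tunicamycin and 4.59%, 1.65% and 3.54% without it. Its groups overlap and its call (1.12 ± 0.44 SE, adjusted p = 0.0387) was lost with DESeq2 and without tunicamycin library 1, tunicamycin library 3 or untreated library 2, up to an adjusted p of 0.295.

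**Figure D3:**
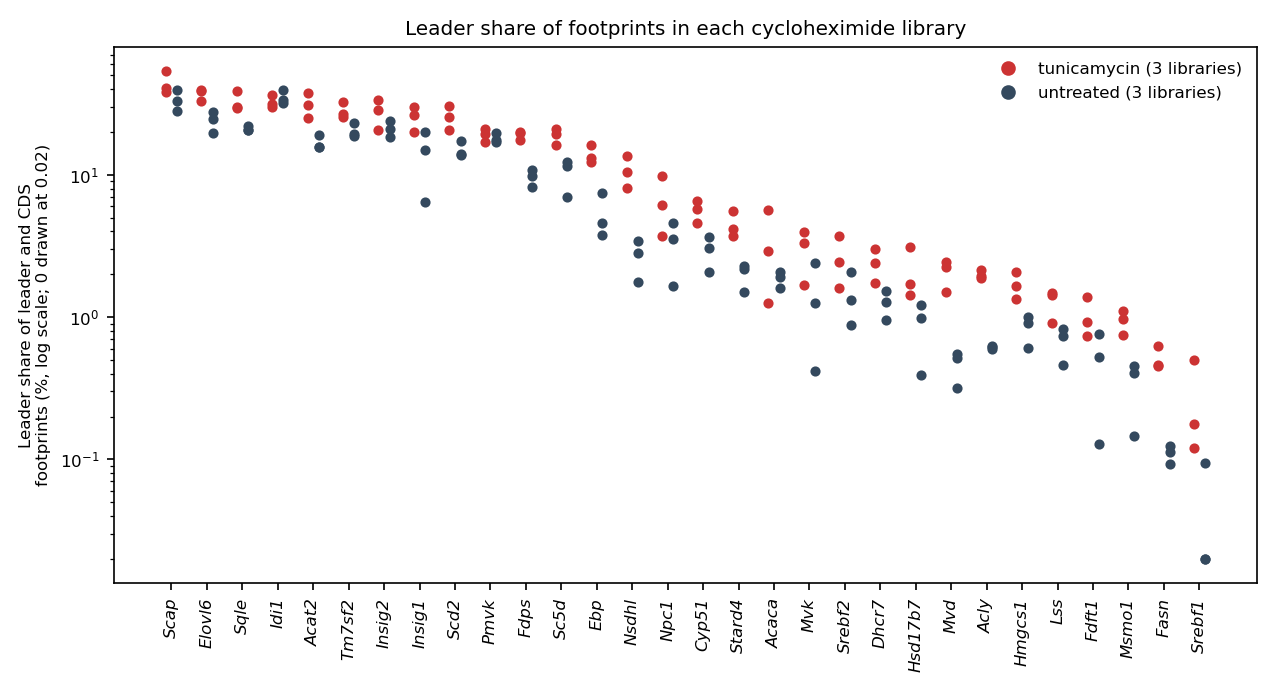
Leader footprints as a percent of leader and CDS footprints (log scale, 0 drawn at 0.02) for the 30 genes in the 3 tunicamycin (red) and 3 untreated (blue) cycloheximide libraries, ordered by the tunicamycin mean. In 19 of the 26 tested genes all red points lie above all blue ones, as in 69.2% of all genes tested. The groups overlap in the rest: Pmvk, Idi1, Fdft1, Srebf2, Scap, Acaca and Npc1.

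The leader share was higher in each pair in 23 of 26 genes (88.5%), against 83.6% of all genes tested, and lay apart upward in 19 (73.1%), against 69.2%. A second fit, chosen after the data had been seen, therefore scaled leader footprints among leaders only, so that a shift common to all leaders drops out. In it 4 of the 26 genes rose, Nsdhl, Fasn, Acly and Msmo1, and 1 fell, Pmvk, where 5.21% of 4469 genes were called higher and 4.77% lower. The log2 changes were 1.23 ± 0.22 SE for Nsdhl (adjusted p = 0.000380), 1.16 ± 0.31 SE for Fasn (0.0141), 0.77 ± 0.21 SE for Acly (0.0166) and 0.79 ± 0.26 SE for Msmo1 (0.0498). Pmvk changed by -0.76 ± 0.17 SE (0.00421), with 337, 276 and 407 leader footprints under tunicamycin and 381, 334 and 513 without it. These are raw counts, from fewer footprints in all under tunicamycin. The fall of Pmvk is relative to other leaders, as its leader share was higher in each pair. Mvd had 1.02 ± 0.39 SE but did not pass (0.0909), on its few footprints. Idi1 had -0.57 ± 0.23 SE and did not pass either (adjusted p = 0.111; with the block 0.0881). Acat2 passed with the block (0.54 ± 0.17 SE, 0.0374), where 6.49% of all genes were called higher. DESeq2 passed Nsdhl and Acly as higher and Pmvk as lower, beside 3.18% and 3.29% of all genes. Nsdhl and Pmvk passed in every alternative. Fasn was lost without tunicamycin library 1, and DESeq2 gave it no adjusted p (log2 change 1.18, unadjusted p = 0.00571). Acly was lost without tunicamycin library 1, tunicamycin library 2 or untreated library 3, and Msmo1 was lost with DESeq2 and without tunicamycin library 2, tunicamycin library 3 or untreated library 2. Their highest adjusted p over the alternatives was 0.0660 for Fasn, 0.0699 for Acly and 0.228 for Msmo1.

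**Figure D4:**
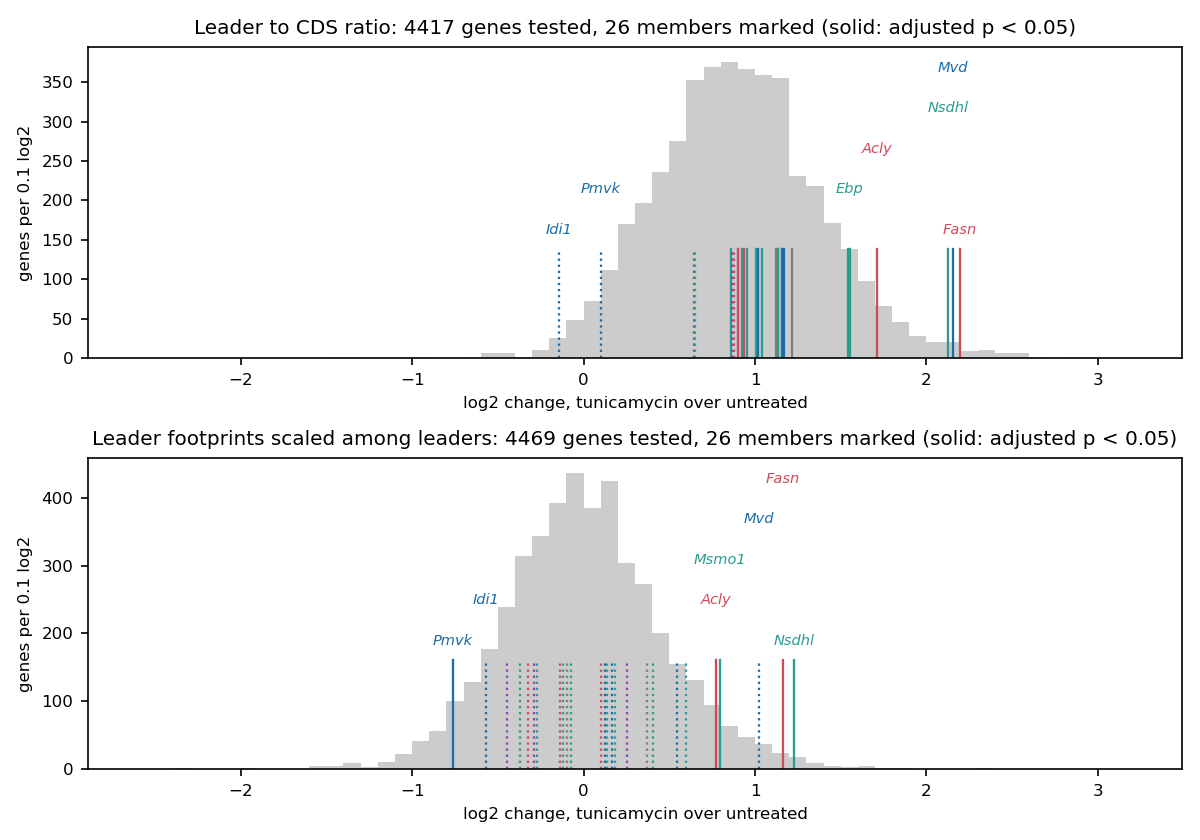
Distribution of log2 changes (tunicamycin over untreated) over all genes tested, as genes per 0.1 log2, for the leader to CDS ratio (top) and for leader footprints scaled among leaders (bottom), with the 26 tested synthesis genes as coloured lines, solid where they pass. In the top panel most of the distribution lies right of 0; in the bottom panel Nsdhl (1.23) and Pmvk (-0.76) bound the 26.

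Harringtonine positions are meant to mark where initiating ribosomes were held. Whether each kept position does so was not tested. The authors' files list 55 positions in 25 of the 30 genes, which merge to 51 sites when positions within 10 bases are joined. Dhcr7, Insig2, Msmo1, Npc1 and Nsdhl had no listed position. Of the 51 sites 39 had enough reads to test, and 0 passed, as did 0 of all 5123 sites (0.00%). At an unadjusted p under 0.05 edgeR had 0 of the 39, against 176 of all sites (3.44%), and DESeq2 passed 0 of them and 1 site of the whole table (0.0195%). The highest site was in Sqle (chromosome 15, position 59315528, plus strand, 436 bases from the RefSeq gene start), with 465, 892 and 1030 CPM under tunicamycin and 599, 836 and 780 CPM without it.

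Sites of Fdft1 and Sc5d came nearest to a difference. The Fdft1 site (chromosome 14, 63177794, minus strand) had 491, 455 and 639 CPM under tunicamycin and 310, 335 and 436 CPM without it. These groups did not overlap, and the log2 change was 0.55 ± 0.26 SE (edgeR unadjusted p = 0.0517, adjusted p = 1.0). Fdft1 shares 774 bases of its RefSeq span with Ctsb. The main Sc5d site (chromosome 9, 42262121, minus strand) had 133, 133 and 200 CPM under tunicamycin and 50.7, 140 and 84.3 CPM without it, an overlap (0.77 ± 0.37 SE, unadjusted p = 0.06). The Scap site (chromosome 9, 110352964, plus strand) had 26.3, 20.1 and 19.5 CPM under tunicamycin and 29.3, 46.6 and 29.5 CPM without it, apart and lower (-0.66 ± 0.40 SE, unadjusted p = 0.126). A site of Elovl6 (chromosome 3, 129532486) and a site of Fdps (chromosome 3, 89095088) also lay apart and lower (edgeR unadjusted p = 0.128 and 0.141). So did the Acaca site (chromosome 11, 84195469), narrowly, with 13.1, 38.4 and 40.7 CPM under tunicamycin and 41.0, 48.9 and 44.3 CPM without it (edgeR unadjusted p = 0.235). An untested Idi1 site (chromosome 13, 8885966) lay apart and higher, with 16.4, 25.6 and 12.4 CPM under tunicamycin and 7.8, 9.32 and 10.5 CPM without it. The share of all sites with groups apart was not counted.

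None of the other sites passed either. The Hmgcs1 site with most reads had 281, 176 and 241 CPM under tunicamycin and 216, 268 and 215 CPM without it, and the single Cyp51 site 232, 282 and 427 CPM under tunicamycin and 259, 291 and 401 CPM without it. Fasn had 8 sites, the highest 11882 bases into the gene, with 4.93, 108 and 79.7 CPM under tunicamycin and 70.2, 235 and 105 CPM without it. The lowest tunicamycin library held only 3 reads there, and the groups overlap. That Fasn site took 22.9% ± 16.3 of the gene's harringtonine reads under tunicamycin and 35.6% ± 5.48 without it, and the upstream Acat2 site took 28.8% ± 7.73 of its gene's reads under tunicamycin and 26.6% ± 3.82 without it (SD, n = 3 each). The site of Srebf2 held 7, 12 and 1 reads under tunicamycin and 2, 7 and 4 without it, and was not tested.

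The sequence at these positions could be read only inside the promoter windows, which held 1080 positions of the whole table and 4 positions of these genes. Across the table an ATG began 12 bases after 10.4% of the positions and 13 bases after 14.2%, against at most 4.02% at any other distance from -20 to 30. The 30 bases from the Insig1 position (chr5:28071407-28071436, plus strand) and the Tm7sf2 position (chr19:6067820-6067849, minus strand) are shown because both hold an ATG, set in capitals.
Insig1: cgtgtaccttccATGctgtgcctggacgcc
Tm7sf2: aagatcaATGaacaagagcagcagcttttc
In Insig1 the ATG begins 12 bases after the position, a distance more frequent across the table, and the position lies 5 bases before the RefSeq gene start. In Tm7sf2 it begins after 7 bases. Insig1 reads at its position were 59.2, 154 and 120 CPM under tunicamycin and 68.3, 107 and 124 CPM without it, an overlap (0.15 ± 0.38 SE).

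**Figure D5:**
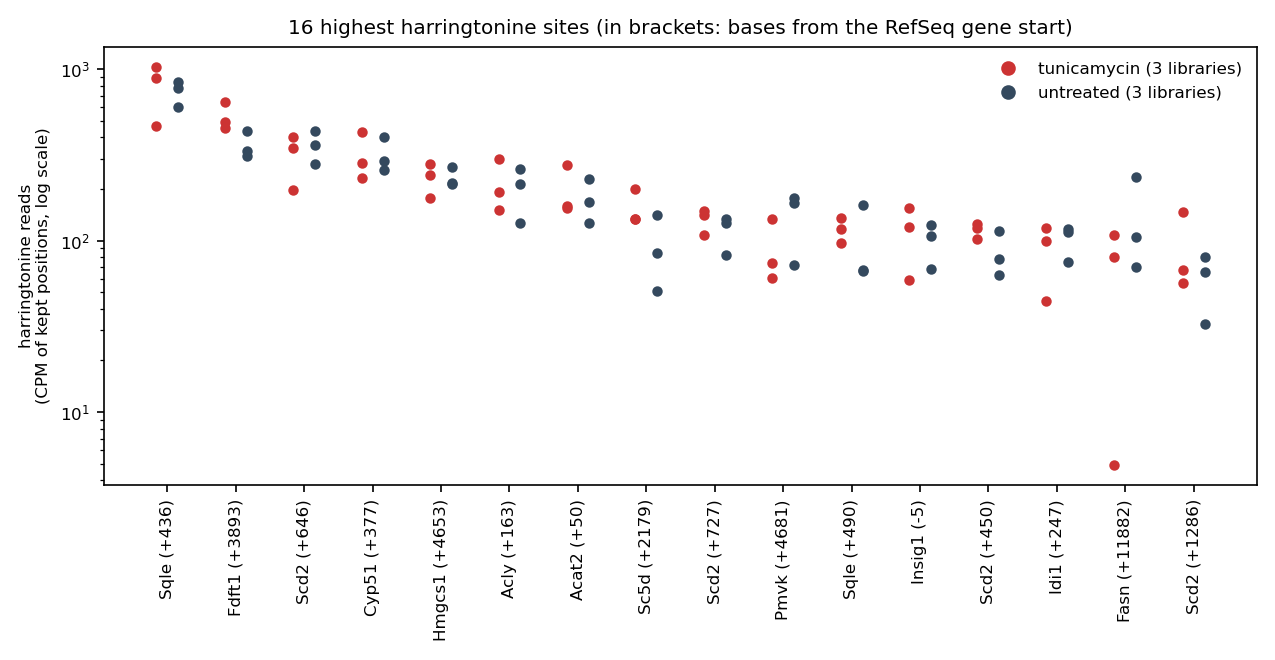
Harringtonine reads (CPM of kept positions, log scale) at the 16 highest sites of the synthesis genes in the 3 tunicamycin (red) and 3 untreated (blue) libraries, labelled with the distance in bases from the RefSeq gene start. Groups overlap at most sites; at the Fdft1 site the red points (455 to 639) lie above the blue (310 to 436).

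Other genes of lipid synthesis were compared as 4 lists with 61 genes in all. In RNA 0 of 56 tested passed in edgeR, beside 0.150% of all genes. With the block 2 rose and 1 fell, beside 283 called higher and 127 called lower of all 10643 genes. In CDS footprints 0 of 52 rose and 1 fell, Fads2, where 2.58% of all genes passed. With the block 0 rose and 5 fell, beside 5.63% of all genes called higher and 3.92% called lower. In translational efficiency 1 of 52 rose, Nr1h2, and 0 fell, where 1.40% of all genes passed. With the block 1 rose and 4 fell, beside 440 of all 9218 genes called higher and 4.23% called lower. The leader to CDS ratio rose in 20 of 29 tested genes and fell in 0, which is near the 64.3% called higher among all genes. Fads2, the delta-6 desaturase of polyunsaturated fatty acids, had 411.5, 373.5 and 363 CDS CPM under tunicamycin and 500, 477 and 494 CPM without it. It fell by 0.36 on the log2 scale (± 0.08 SE, adjusted p = 0.0387), with no overlap. Fads1, its delta-5 partner, had 138, 119 and 114 CPM under tunicamycin and 164, 147 and 159 CPM without it, apart but not passing without the block (-0.34 ± 0.10 SE, 0.0773; with the block 0.00698).

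Hsd17b12, a reductase of fatty acid elongation, had CDS to RNA ratios of 1.41, 1.395 and 1.50 under tunicamycin and 1.87, 2.02 and 1.66 without it. The groups lay apart, with a log2 change of -0.36 ± 0.10 SE (adjusted p = 0.0796; with the block 0.0181). The log2 change in efficiency of Acsl3, a fatty acyl-CoA synthetase, was -0.40 ± 0.19 SE (0.327; with the block 0.0142), that of Fads1 -0.39 ± 0.11 SE (0.0780; with the block 0.00886) and that of Fads2 -0.37 ± 0.11 SE (0.0924; with the block 0.0192). Nr1h2, which encodes the sterol-sensing receptor LXR beta, rose in efficiency by 0.82 ± 0.18 SE (adjusted p = 0.0295). Its ratio was 0.213, 0.174 and 0.221 under tunicamycin and 0.134, 0.106 and 0.107 without it. Its RNA was lower at the same time, with 51.8, 54.6 and 56.1 CPM under tunicamycin and 61.4, 70.1 and 72.8 CPM without it (-0.32 ± 0.08 SE, adjusted p = 0.194; with the block 0.0165).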

How the data were processed

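RNA, cycloheximide and harringtonine libraries were made in 3 per treatment. The deposited tables hold raw counts: RNA reads per gene, cycloheximide footprints per leader, coding sequence and 3′ UTR, and harringtonine reads at single positions kept by the authors. The submitters' processing notes list the tools STAR, HTSeq and edgeR, and the builds mm10 and GRCm38, without versions or options. Each kept harringtonine position has at least 20 reads summed over 1 treatment, so those totals are not depth.

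The tests used edgeR 4.0.16 (R 4.3.3; TMM, filterByExpr with minimum counts 10 and 15, quasi-likelihood, Benjamini-Hochberg over all features, adjusted p under 0.05) and were checked on simulated data. DESeq2 1.42.0 was an alternative. The leader to CDS ratio is the interaction of feature and treatment with library terms, and translational efficiency that of assay and treatment; ratios of CPM describe efficiency per library. Replicate numbers come from the sample titles. Whether they match between RNA and cycloheximide libraries was not checked. Deviations of same-numbered libraries from their group means correlated at 0.604, 0.569 and 0.279 in RNA and 0.434, 0.113 and 0.326 in CDS footprints. Those of different-numbered libraries ran from -0.602 to 0.271 in RNA and from -0.35 to 0.029 in CDS footprints. In RNA the 0.271, of tunicamycin 3 with untreated 2, is close to the 0.279 of pair 3. The numbers were taken as pairs, and blocked values are printed where they change a call and for some genes that miss it. The labels do not say whether libraries come from separate cultures or animals, so p-values measure only the spread between them.

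The 30 genes and all lists were chosen with earlier results of these data known. Values in every library are given for genes passing in any comparison, the 3 with the smallest p in each, and 9 regulators and enzymes set by name; genes of other lists are named where they pass or have a small p. Results of 1 gene named by this rule are not reported here. Harringtonine columns were tied to treatments, not to replicate numbers.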

Additional observations from a re-analysis of the deposited data

How the results depend on the processing

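RLE scaling left each count of called genes within 1.5 times. DESeq2 passed 114 genes in RNA against 16 in edgeR, with 1 of the 30 genes higher, 392 in translational efficiency against 129, with 1 of the 30 lower, 289 in leaders scaled among leaders against 446, with 2 of the 26 higher and no adjusted p for Fasn, and 1 harringtonine site against 0. Without the low-count filter 122 genes passed in RNA and 573 in CDS footprints against 239, where the median of the 30 genes was -0.0256. With the replicate block 410 genes passed in RNA (3 of the 30 higher), 885 in CDS footprints (2 higher, 2 lower) and 830 in efficiency (3 lower); with the block on the leader to CDS ratio, 22 of 26 were higher. Harringtonine reads summed per gene passed 1 gene, none of the 25; single positions passed none of these genes. Leaving out 1 library gave 3 to 26 RNA calls, 58 to 431 in CDS footprints, 20 to 296 in efficiency, 1786 to 2831 in the leader to CDS ratio, 146 to 583 among leaders and 0 to 4 harringtonine sites. Of the synthesis genes it gave 0 in RNA, CDS footprints, efficiency and harringtonine sites, 15 to 22 higher leader to CDS ratios, and among leaders 2 to 5 higher (2 without tunicamycin library 1 or 2) and 1 to 2 lower. Their medians ran from 0.0522 to 0.0874 in RNA, -0.0563 to -0.0138 in CDS footprints, -0.0892 to -0.0574 in efficiency, 0.807 to 1.19 in the leader to CDS ratio, 0.104 to 0.244 among leaders and -0.0843 to 0.0312 at harringtonine sites. Of the 20 leader to CDS calls 15 held in every alternative, with the exceptions Fdft1, Lss, Dhcr7, Insig1 and Npc1. The cause was not tested. No replicate block was run on harringtonine sites, whose columns were not matched to numbers. The blocked fits on leaders were chosen after seeing the data. Of the 30 genes, those that pass with the block in RNA, CDS footprints and efficiency do not pass in the edgeR fit without it, and Mvd, Fdft1 and Npc1 had at most 28 leader footprints in any library, which limits their ratios.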

Other observations

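Footprints in the 3′ UTR of the 30 genes summed to 759, 666 and 778 in tunicamycin libraries and 964, 952 and 976 in untreated libraries, from fewer footprints in all under tunicamycin. As a share of 3′ UTR and CDS footprints they were 1.31% ± 0.03 under tunicamycin and 1.29% ± 0.07 without it (SD, n = 3 each), and over all genes 2.19% ± 0.15 and 2.21% ± 0.10. Scd2 held 379, 304 and 348 of them under tunicamycin and 423, 449 and 436 without it.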
